A study of Mus musculus with 37 samples.

Results

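The genes of polyunsaturated fatty acid synthesis were examined in mouse liver after oral exposure to HFPO-DA (hexafluoropropylene oxide dimer acid), a short-chain per- and polyfluoroalkyl substance. The members are 6 genes named by symbol, Fads1, Fads2, Fads3, Fads6, Elovl2 and Elovl5, and every probe whose name carries one of these symbols was taken. They are 6 of 21450 genes on the panel and are read by 8 of its 30146 probes, 1 probe for each Fads gene and 2 each for Elovl2 and Elovl5. All 8 probes passed the filter on low counts.

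Livers came from 37 wild-type CD1 mice dosed by oral gavage once a day with the vehicle, deionized water, or with HFPO-DA at a low (0.1), middle (0.5) or high (5) dose in mg/kg. The 19 males comprised 5, 5, 5 and 4 animals in order of dose and had received 84 to 85 doses. The 18 females comprised 5, 5, 4 and 4 animals, had received 53 to 65 doses, and were sampled on day 20 or 21 of lactation. Sex, lactation, age and length of dosing therefore cannot be told apart in these mice. RNA was assayed on sections of formalin-fixed, paraffin-embedded (FFPE) liver by TempO-Seq, in which pairs of detector oligonucleotides are ligated on their target transcript and sequenced, so that each probe gives a count of reads. Levels are CPM values, counts scaled to a common normalized library size that let the same probe be compared between mice but not different probes with each other, and changes are log2 fold changes against the vehicle group of the same sex by the quasi-likelihood method of edgeR, with Benjamini-Hochberg adjusted p-values over all 18570 probes tested. A probe was called at an adjusted p under 0.10.

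Mammals cannot make linoleic and alpha-linolenic acid, and build the longer polyunsaturated fatty acids, such as arachidonic and docosahexaenoic acid, from these dietary precursors. In the endoplasmic reticulum of the hepatocyte Fads2 places the first additional double bond, an elongase of the Elovl family lengthens the chain, Fads1 places the next double bond, and Elovl5 and then Elovl2 lengthen the chain further. The last step to docosahexaenoic acid is a shortening by peroxisomal beta-oxidation, and the products are esterified into phospholipids. In liver Fads1, Fads2 and Elovl5 are known targets of the sterol-regulated factor SREBP1c, and Fads2 is also known to respond to PPARα.

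In the GRCm38 annotation 3 of the genes lie together on chromosome 19. Fads3 (chr19:10041569-10060110, plus strand) and Fads2 (chr19:10062765-10101746, minus strand) end 2654 bases apart, and the start of Fads2 lies 81.1 kb from that of Fads1 (chr19:10182888-10196877, plus strand), which is read the opposite way. Fads6 lies at chr11:115279622-115297663 (minus strand), Elovl2 at chr13:41182381-41220405 (minus strand) and Elovl5 at chr9:77917364-77984519 (plus strand). RefSeq promoter windows (GRCm38.p6, from 250 bases before to 50 after a start site) were found for 5 of the 6 genes. Those of the 3 genes with a called trend over dose in at least 1 sex are shown, Fads2 and Elovl5 having risen and Fads6 fallen. Capitals mark any of the motifs searched on both strands, which were the box CCAAT bound by NF-Y, the box GGGCGG bound by Sp factors, the E-box with letters CACGTG, the core promoter element TATAAA, the nuclear receptor core written AGGTCA, and a pair of that core in the same direction 1 base apart with up to 2 mismatches. Fads2 is at chr19:10101454-10101753 (minus strand), Elovl5 at chr9:77917115-77917414 (plus strand) and Fads6 at chr11:115297513-115297812 (minus strand).
Fads2: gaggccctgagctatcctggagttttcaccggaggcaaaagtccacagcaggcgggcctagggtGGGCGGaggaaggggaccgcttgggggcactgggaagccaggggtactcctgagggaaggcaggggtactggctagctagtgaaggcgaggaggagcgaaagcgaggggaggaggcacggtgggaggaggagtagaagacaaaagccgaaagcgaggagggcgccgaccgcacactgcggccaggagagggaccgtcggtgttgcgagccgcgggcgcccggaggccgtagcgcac
Elovl5: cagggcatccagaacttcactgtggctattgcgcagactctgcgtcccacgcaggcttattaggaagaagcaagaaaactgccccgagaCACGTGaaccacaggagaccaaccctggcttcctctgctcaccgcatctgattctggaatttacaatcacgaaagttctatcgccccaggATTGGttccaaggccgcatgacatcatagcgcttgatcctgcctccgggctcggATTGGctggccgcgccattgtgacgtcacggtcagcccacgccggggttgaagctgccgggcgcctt
Fads6: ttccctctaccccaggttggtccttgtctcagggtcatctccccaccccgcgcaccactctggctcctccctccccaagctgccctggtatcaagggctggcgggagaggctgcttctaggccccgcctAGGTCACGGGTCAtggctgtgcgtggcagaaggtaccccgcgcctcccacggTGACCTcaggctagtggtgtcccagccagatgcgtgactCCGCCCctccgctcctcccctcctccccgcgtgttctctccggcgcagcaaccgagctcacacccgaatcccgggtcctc

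The Elovl5 window held CACGTG at -161 from the start site, and CCAAT on the minus strand at -71 and -17. CACGTG was in 7.15% and CCAAT in 37.4% of 32851 windows of the same length. The Fads6 window held AGGTCA at -121 and, on the minus strand, at -69, and the copy at -121 began a pair with 1 mismatch. AGGTCA was in 16.3% of windows, a pair with up to 2 mismatches in 3.86% and a pair with at most 1 in 0.554%. The Fads2 window held GGGCGG at -186, a motif found in 35.7% of windows, and no AGGTCA pair. Nearly all of the Fads2 window and part of the Fads6 window lie inside the gene bounds given above. Positions are thus relative to the RefSeq start site, and sequence further upstream of the annotated gene starts was not searched. Neither TATAAA, found in 13.6% of windows, nor any other of the motifs was seen in these 3 windows beyond those named and a GGGCGG at -30 of Fads6. These are matches of letters, and binding was not measured.

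Total counts ran from 2101495 to 10548222 in males and from 7952605 to 13878254 in females, and 4 males had under 5000000, of which 2 were in the 5 mg/kg group. Liver identity was checked on hepatocyte markers, of which 6 had a tested probe. Their summed level was 22600 to 34100 CPM in vehicle males against 14300 to 19400 at 5 mg/kg, and 24300 to 31900 in vehicle females against 18900 to 25800 at 5 mg/kg. Of these 6 markers, 3 were called lower in males (Cps1, Cyp2e1 and Ass1) and 2 in females (Ttr and Ass1), and none was called higher. Over all probes 8.49% were called lower in males and 2.26% in females at that dose. Adipocyte markers were at or near 0, with a summed level of at most 3.23 CPM in any mouse and 0 in the 4 males at 5 mg/kg. In sections of whole liver, fewer cells of a type and less RNA of single marker genes per cell cannot be told apart. The part of these shifts in the results below was not tested.

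**Figure D1:**
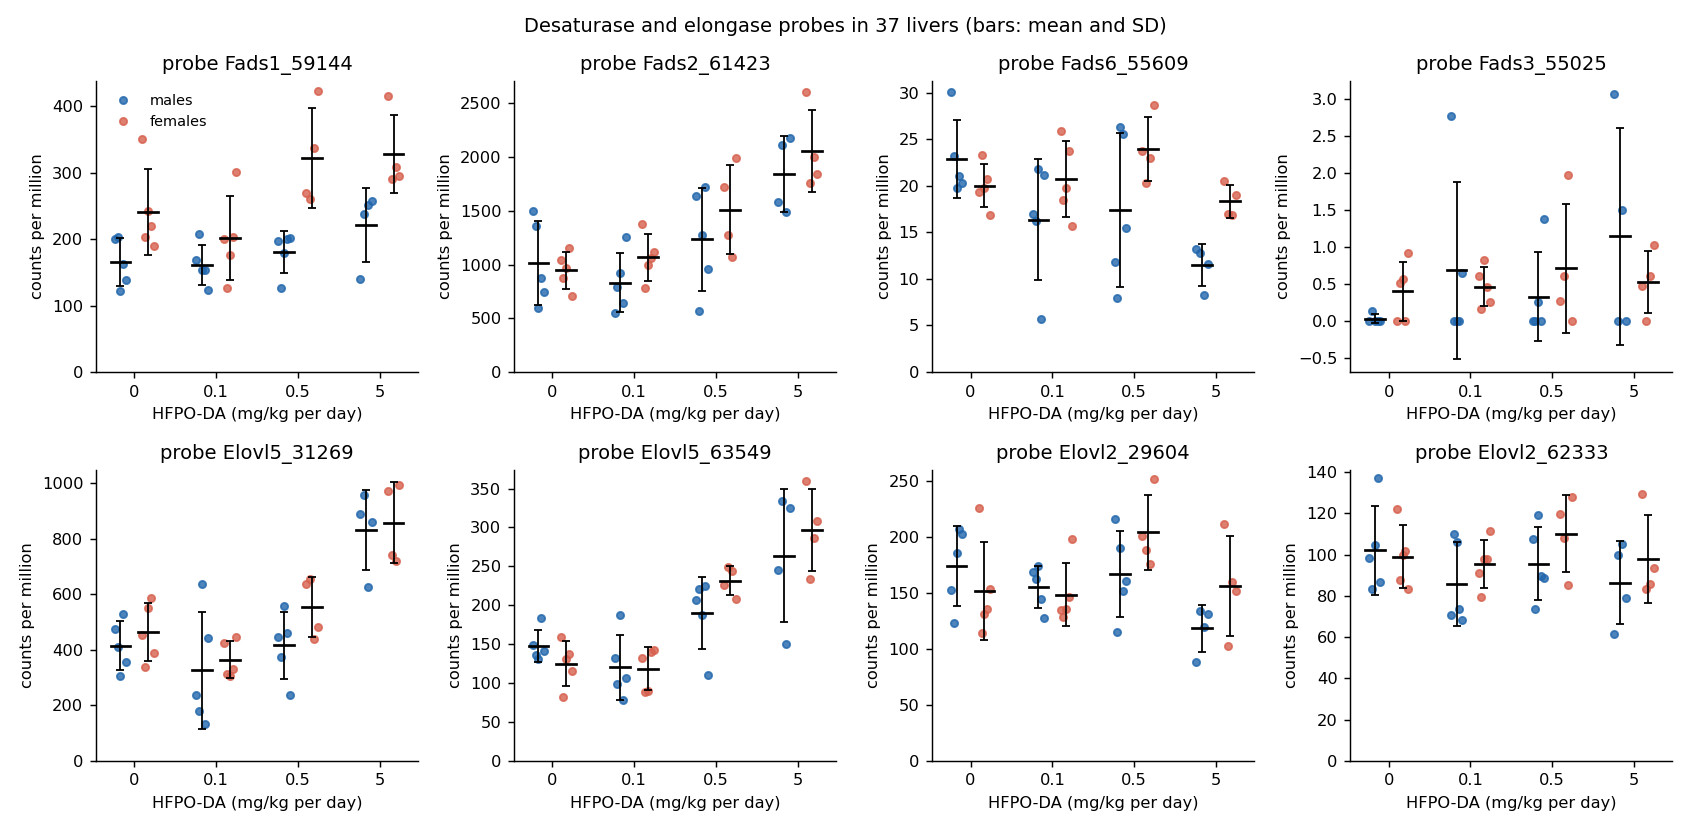
Level of each probe in CPM (vertical axis) by dose of HFPO-DA (horizontal axis, evenly spaced groups) in males and females. Points are mice, and bars give the mean and SD of each group of 4 or 5. Both Elovl5 probes and Fads2 stand highest at 5 mg/kg in both sexes, whereas Fads6 is lowest there in males.

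Fads2, the desaturase of the first step, rose at 5 mg/kg in both sexes. In vehicle males its probe read 1497, 1356, 597, 878 and 744 CPM, and in males at 5 mg/kg it read 1582, 2112, 1491 and 2181 CPM. The lowest treated male lay just under the highest vehicle male, so the groups touched. In vehicle females the values were 1038, 873, 970, 1155 and 703 CPM, and at 5 mg/kg they were 2604, 1762, 2000 and 1846 CPM. Here every treated mouse stood above every vehicle mouse. The log2 fold change was 0.86 (SE 0.26, n = 4 against 5, edgeR adjusted p = 0.0275) in males and 1.11 (SE 0.26, n = 4 against 5, edgeR adjusted p = 0.0049) in females. The male call came near the threshold without vehicle replicate 3 (edgeR adjusted p = 0.0996) and with each sex fitted apart (edgeR adjusted p = 0.0877). At 0.5 mg/kg the level was 569 to 1726 CPM in males and 1067 to 1987 CPM in females, both overlapping vehicle. The log2 fold change there was 0.28 (SE 0.24, edgeR adjusted p = 0.842) in males and 0.67 (SE 0.26, edgeR adjusted p = 1) in females.

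Elovl5, which lengthens the chain between the desaturation steps, rose in both sexes on both of its probes. On the more counted probe, Elovl5_31269, vehicle males read 474, 409, 307, 528 and 355 CPM and males at 5 mg/kg read 888, 956, 625 and 861 CPM. Vehicle females read 455, 338, 550, 585 and 389 CPM and females at 5 mg/kg read 973, 742, 720 and 994 CPM. In both sexes the groups did not overlap. The log2 fold change was 1.01 (SE 0.27, edgeR adjusted p = 0.0142) in males and 0.89 (SE 0.27, edgeR adjusted p = 0.0615) in females. The female call was lost when any of 3 vehicle mice (replicates 1, 2 and 5) or of 2 treated mice (replicates 1 and 4) was left out, with adjusted p between 0.108 and 0.186 and log2 fold changes between 0.79 and 0.88. It was kept by DESeq2 (adjusted p = 0.0102) and with each sex fitted apart (edgeR adjusted p = 0.00254).

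The other probe, Elovl5_63549, showed a rise of similar size. Vehicle males read 149, 136, 131, 183 and 141 CPM and males at 5 mg/kg 245, 334, 150 and 325 CPM. The 1 treated male inside the vehicle range was the library of lowest depth, with 2101495 counts. Vehicle females read 160, 81.5, 131, 137 and 115 CPM and females at 5 mg/kg 360, 234, 286 and 308 CPM, with no overlap. The log2 fold change was 0.84 (SE 0.23, edgeR adjusted p = 0.0142) in males and 1.25 (SE 0.23, edgeR adjusted p = 0.000236) in females.

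At 0.5 mg/kg the Elovl5 probes read differently in females. Elovl5_63549 read 226, 249, 244 and 208 CPM, all above the vehicle females, with a log2 fold change of 0.89 (SE 0.23) whose unadjusted p was 0.000313 and whose edgeR adjusted p was 0.215. Elovl5_31269 in the same 4 mice read 635, 655, 439 and 483 CPM, inside and just above the vehicle range, with a log2 fold change of 0.26 (SE 0.27, edgeR adjusted p = 1). Within each mouse the log2 ratio of Elovl5_31269 to Elovl5_63549 was 1.90 ± 0.26 (SD, n = 5) in vehicle females and 1.24 ± 0.28 (SD, n = 4) at 0.5 mg/kg. The difference of -0.66 gave p = 0.016 in a two-sided exact permutation test, the smallest these group sizes allow, and 0.0952 after adjustment over 24 comparisons of ratios. In males at 0.5 mg/kg the corresponding difference was -0.35 (exact permutation p = 0.056, adjusted 0.218).

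Fads1, which places the later double bond, was not called in either sex. Its probe read 200, 203, 122, 163 and 138 CPM in vehicle males and 139, 238, 252 and 257 CPM at 5 mg/kg, so that 3 of the 4 treated males stood above all vehicle males and the other lay among them. Vehicle females read 350, 203, 242, 219 and 190 CPM and females at 5 mg/kg 415, 291, 308 and 295 CPM, overlapping because of the highest vehicle female. The log2 fold change was 0.42 (SE 0.22, 95% interval -0.02 to 0.86, edgeR adjusted p = 0.234) in males and 0.44 (SE 0.22, 95% interval 0.01 to 0.88, edgeR adjusted p = 0.391) in females. With DESeq2 the male change was called (0.53, adjusted p = 0.0982). The interval reached the change fitted for Fads2 in males, and fell short of it in females (0.86 and 1.11). The 95% intervals of Fads2, 0.34 to 1.38 in males and 0.60 to 1.63 in females, overlapped those of Fads1 in both sexes. The changes of these genes are thus not told apart by their intervals.

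The balance of the desaturases was therefore also compared within each mouse, where normalization cancels. The log2 ratio of Fads2 to Fads1 counts was 1.99 ± 0.30 (SD, n = 5) in vehicle females and 2.65 ± 0.04 (SD, n = 4) at 5 mg/kg, a difference of 0.65 (exact permutation p = 0.016, adjusted 0.0952 over 24 comparisons). In males it was 2.56 ± 0.26 (SD, n = 5) and 3.08 ± 0.39 (SD, n = 4), a difference of 0.52 (exact permutation p = 0.048, adjusted 0.218). The 4 females at 5 mg/kg lay within 2.60 to 2.70, above every vehicle female. The level of a ratio depends on how well each probe is ligated, and only its difference between groups can be read.

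Elovl2, the elongase of the longest chains, was not called higher in either sex. On Elovl2_29604 vehicle males read 153, 123, 185, 207 and 202 CPM and males at 5 mg/kg 88.0, 134, 119 and 131 CPM, where 2 of the 4 treated males lay below all vehicle males and the other 2 above the lowest of them. On the log2 scale the level fell by 0.56 (SE 0.21, edgeR adjusted p = 0.0879). This call was lost when any of 5 mice was left out (vehicle replicates 3, 4 and 5 and treated replicates 1 and 3), with adjusted p from 0.109 to 0.2, and with DESeq2 (adjusted p = 0.132). It was also lost with each sex fitted apart, without the filter, with libraries thinned, with DESeq2 size factors in edgeR and without the 4 males under 5000000 counts, with edgeR adjusted p from 0.116 to 0.347. The second probe, Elovl2_62333, read 83.4 to 137 CPM in vehicle males and 61.3 to 105 CPM in treated males, with a log2 difference of -0.24 (SE 0.20, edgeR adjusted p = 0.508). Females at 5 mg/kg differed from vehicle by 0.04 (SE 0.20, 95% interval -0.37 to 0.46) and -0.01 (SE 0.19, 95% interval -0.41 to 0.38) on the 2 probes, both with an edgeR adjusted p of 1.

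Within mice, the log2 ratio of Elovl5 to Elovl2, with the 2 probes of each gene summed, separated the 5 mg/kg groups completely. It was 0.60 to 1.40 in vehicle males and 1.79 to 2.92 at 5 mg/kg, and 0.82 to 1.61 in vehicle females and 1.97 to 2.41 at 5 mg/kg. The difference was 1.39 in males and 0.97 in females, each with an exact permutation p of 0.016, the smallest possible here, and 0.0952 after adjustment. In females the Elovl2 probes differed from vehicle by only 0.04 and -0.01, so there the ratio mostly restates the Elovl5 rise. At 0.5 mg/kg the difference in this ratio was 0.16 (exact permutation p = 0.556) in males and 0.10 (exact permutation p = 0.683) in females.

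**Figure D2:**
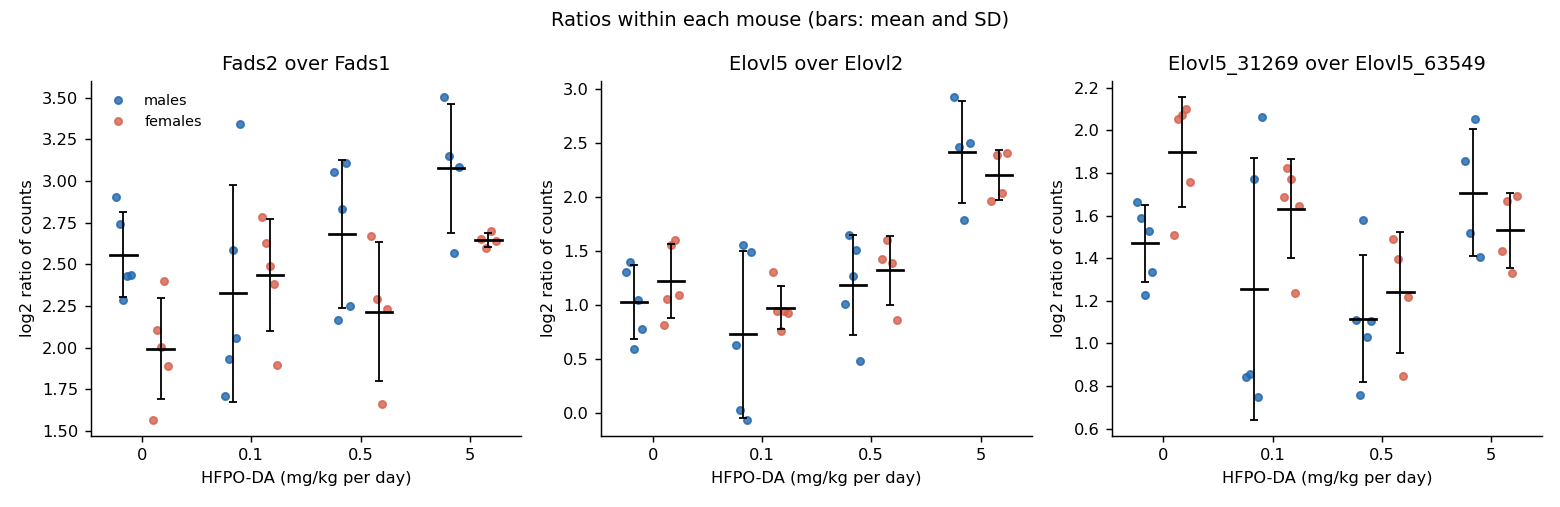
Log2 ratios of counts within each mouse (vertical axis) by dose (horizontal axis), for Fads2 over Fads1, Elovl5 over Elovl2 and the pair of Elovl5 probes. Points are mice and bars the mean and SD. At 5 mg/kg every Elovl5 over Elovl2 ratio lies above all vehicle ratios of the same sex, and in females at 0.5 mg/kg the ratio of the Elovl5 probes lies below all vehicle females.

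Fads6, a desaturase-family member whose substrate is not established, moved the other way in males. Vehicle males read 30.02, 23.2, 19.8, 21.0 and 20.3 CPM and males at 5 mg/kg 13.2, 12.8, 8.25 and 11.6 CPM, with every treated male below every vehicle male. On the log2 scale it fell by 0.99 (SE 0.31, edgeR adjusted p = 0.0356). Without the treated male of lowest depth (replicate 3) the change was -0.87 and the adjusted p 0.11, and with each sex fitted apart the edgeR adjusted p was 0.178. Vehicle females read 16.9 to 23.4 CPM and treated females 16.9 to 20.5 CPM, with a log2 difference of -0.13 (SE 0.30, 95% interval -0.72 to 0.47, edgeR adjusted p = 1).

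The level of Fads6 moved with the total count among males. After the mean of each group was subtracted, its log2 CPM and the log2 total count had a Pearson r of 0.706 over 37 mice (permutation p = 0.00124, adjusted 0.0122 over 15 relations) and a Spearman rho of 0.421 (permutation p = 0.0236, adjusted 0.0709). Without the 2 mice whose Fads6 level, with group means removed, was farthest from the median, r was 0.496. Within males r was 0.803 and within females -0.465, a difference that was not tested. The 3 lowest values, 5.72, 7.92 and 8.25 CPM, belonged to males with 4012015, 2608954 and 2101495 counts, 1 in each exposed group. When the 4 males under 5000000 counts were left out, a fit chosen after seeing these values, Fads6 fell by 0.95 at 5 mg/kg with an edgeR adjusted p of 0.0465 and n = 2 treated males. With every library thinned to 2101495 counts it fell by 0.96 (edgeR adjusted p = 0.0427).

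Fads2 had a weaker relation of the same kind, with r = 0.493 (permutation p = 0.0101, adjusted 0.0253) and rho = 0.345 (permutation p = 0.0577, adjusted 0.124). Here r was 0.308 without the 2 mice farthest from the median Fads2 level, and 0.653 in males against -0.543 in females. In the 2 shallow libraries at 5 mg/kg Fads2 was at 1582 and 1491 CPM. Without the 4 shallow males its log2 fold change in males was 1.04 (edgeR adjusted p = 0.0195), and those of the Elovl5 probes were 1.09 (adjusted p = 0.0209) and 1.11 (adjusted p = 0.00268).

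**Figure D3:**
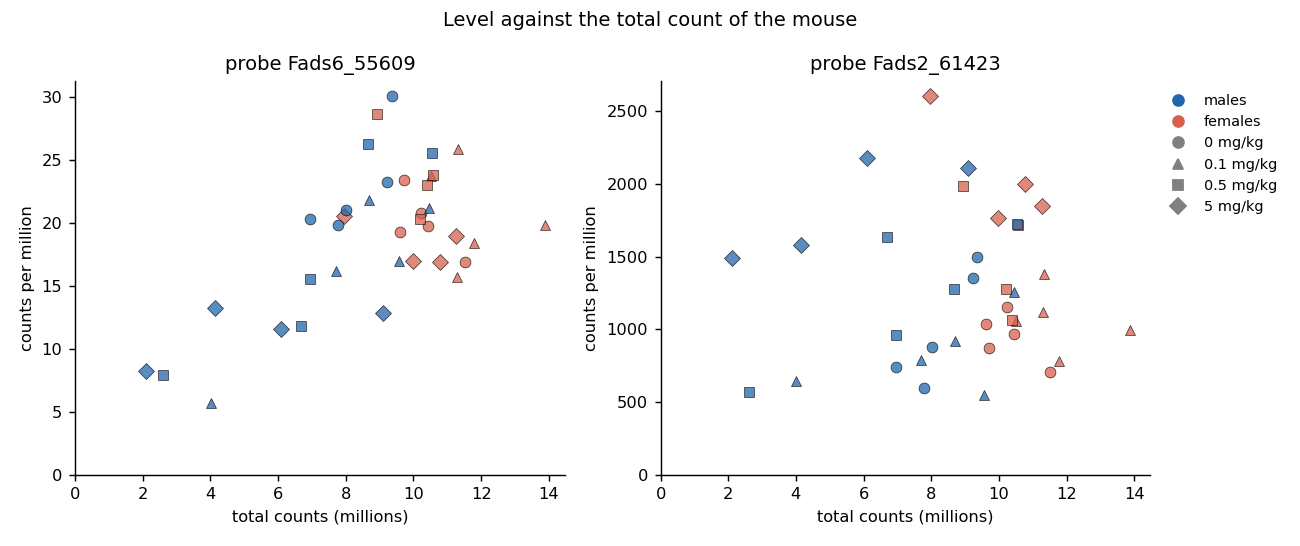
Level of Fads6 and of Fads2 in CPM (vertical axes) against the total count of each mouse (horizontal axes). Colour gives the sex and marker shape the dose, and each point is 1 mouse. The 3 males with the fewest counts have the 3 lowest Fads6 values, while Fads2 in the 5 mg/kg males lies between 1491 and 2181 CPM.

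Fads3, known to act on sphingoid bases, was barely detected. It had 0 counts in 4 of 5 vehicle males and 1 count in the other, and at 5 mg/kg the males had 13, 0, 4 and 0 counts. The highest count in any mouse was 24, in a male at 0.1 mg/kg and a female at 0.5 mg/kg. Vehicle females had 0 to 11 counts and females at 5 mg/kg 0 to 12. With vehicle males at or near 0 the fitted change depends on the prior count and is no measure of size. In males at 5 mg/kg it was 4.83 (SE 2.01, edgeR adjusted p = 0.132), called by DESeq2 (adjusted p = 0.0788) and, in edgeR, without vehicle replicate 2 (adjusted p = 0.0966). In females it was 0.39 (SE 1.75, edgeR adjusted p = 1).

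**Figure D4:**
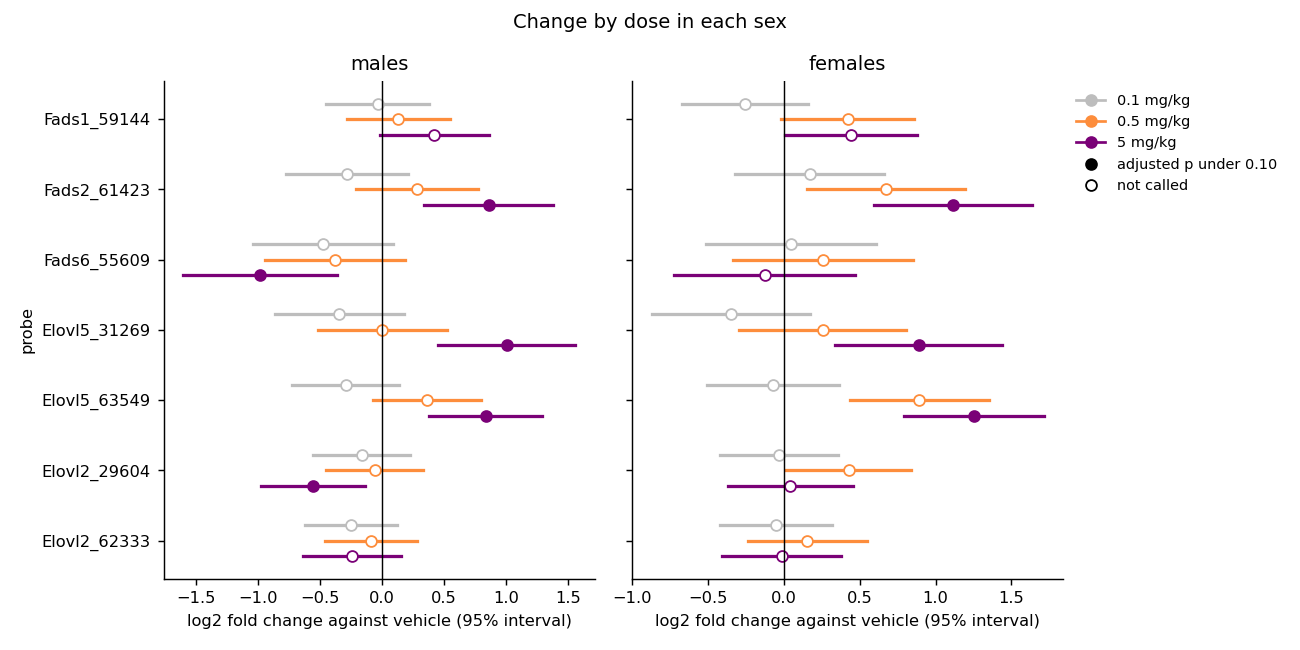
Log2 fold change against vehicle of the same sex (horizontal axis) for 7 probes (vertical axis; Fads3 left out for its low counts), with 95% intervals from the edgeR fit. Filled points have an adjusted p under 0.10, and colour gives the dose. Filled points appear at 5 mg/kg only, at Fads2 and Elovl5 in both sexes and at Fads6 and 1 Elovl2 probe in males.

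Counted over the genes, 4 of 6 had a called probe in males at 5 mg/kg, 2 higher (Fads2 and Elovl5) and 2 lower (Fads6 and Elovl2). Counted by probe, 5 of the 8 were called, 3 higher and 2 lower. Of all probes, 12.7% were called in that comparison, 4.21% higher and 8.49% lower. In females at 5 mg/kg 2 of 6 genes were called, both higher. By probe this was 3 of the 8, against 4.52% of all probes, 2.26% higher and 2.26% lower. The members are too few for a share to be read closely against these backgrounds. Every treated mouse lay above every vehicle mouse in 2.78% of probes in males and 4.4% in females of the top dose, and in 1.52% for females of the middle dose, and every treated male lay below every vehicle male in 4.8%. Among the 8 member probes this held, for the higher direction, for 1 probe of males and 3 of females given 5 mg/kg and for 1 of females given 0.5 mg/kg, and, for the lower, for 1 of males.

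No member was called at 0.5 mg/kg, where 0.625% of probes were called in males and 0.113% in females, and an unadjusted p under 0.05 was reached by 0 of the 8 member probes in males and 3 in females. DESeq2 called 0 of the 6 genes in males and 1, Elovl5, in females. At 0.1 mg/kg the edgeR test called 0.0% of probes in males and 0.0% in females. There 1 member probe of males, Fads3, and 0 of females had an unadjusted p under 0.05, and DESeq2 called none. The log2 fold changes at 0.1 mg/kg, Fads3 aside, lay between -0.47 and -0.04 in males and between -0.35 and 0.17 in females.

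A contrast across the 4 dose levels, taken as equally spaced, gave the change per level. It weighs the difference between 5 mg/kg and vehicle most, and a called trend need not be a steady rise. From the low to the high dose Fads2 had log2 fold changes of -0.29, 0.28 and 0.86 in males and 0.17, 0.67 and 1.11 in females. Elovl5_31269 had -0.35, 0.00 and 1.01 in males and -0.35, 0.26 and 0.89 in females. Fads2 rose by 0.32 per level in males (SE 0.08, edgeR adjusted p = 0.0084) and by 0.38 in females (SE 0.08, edgeR adjusted p = 0.00167). Elovl5_63549 rose by 0.32 (SE 0.07, edgeR adjusted p = 0.0025) and 0.47 (SE 0.07, edgeR adjusted p = 1.23e-05), and Elovl5_31269 by 0.34 (SE 0.09, edgeR adjusted p = 0.0082) and 0.33 (SE 0.09, edgeR adjusted p = 0.0172). Fads6 fell by 0.29 per level in males (SE 0.10, edgeR adjusted p = 0.0533), a call lost without vehicle replicate 1 (adjusted p = 0.105) or 5 mg/kg replicate 3 (adjusted p = 0.137), and lost without the filter (adjusted p = 0.117) and with each sex fitted apart (adjusted p = 0.221). Fads1 in females had 0.20 per level (SE 0.07, edgeR adjusted p = 0.101), and was called with DESeq2 (adjusted p = 0.0257) and in edgeR with DESeq2 size factors, a mean count of at least 10, probes summed, thinning, each sex fitted apart and the males under 5000000 counts left out. In males it had 0.14 (SE 0.07, edgeR adjusted p = 0.193), and was called with DESeq2 (adjusted p = 0.0737) and with DESeq2 size factors in edgeR (adjusted p = 0.094). Of all probes 13.2% had a called trend in males and 5.3% in females.

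The sexes were then compared. In vehicle mice 0 of the 8 probes was called between females and males, where 2.6% of all probes were. Fads1 was nearest, at 190 to 350 CPM in females against 122 to 203 CPM in males, a log2 difference of 0.54 (SE 0.21, unadjusted p = 0.0116, edgeR adjusted p = 0.232). It was the only member probe with an unadjusted p under 0.05, and DESeq2 called none. The difference between the sexes in the change at 5 mg/kg was tested as an interaction, called for 0.63% of all probes and for 0 of the 8, with 2 at an unadjusted p under 0.05 and none called by DESeq2. These 2 were Fads6, with a female minus male difference of 0.86 (SE 0.42, 95% interval 0.01 to 1.71, edgeR adjusted p = 0.461), and Elovl2_29604, with 0.60 (SE 0.29, 95% interval 0.01 to 1.19, edgeR adjusted p = 0.452). That Fads6 was called in males and not in females is thus not shown to be a difference between the sexes. For Fads2 the difference was 0.25 (95% interval -0.48 to 0.99), and at 0.5 mg/kg, where 0.0108% of probes were called, 0 of the 8 had an unadjusted p under 0.05, and DESeq2 called none.

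Members also varied together between mice of a group. The 2 farthest mice were those farthest from the median of 1 gene, Fads1 if in the pair and otherwise the first named. With group means removed, Fads2 and Elovl5 had r = 0.515 over 37 mice (permutation p = 0.00567, adjusted 0.017; rho = 0.577, permutation p = 0.00128, adjusted 0.0096), 0.512 without the 2 farthest mice, and 0.516 in males and 0.518 in females. Fads2 and Fads6, whose changes with dose in males were opposite, had r = 0.574 (permutation p = 0.00365, adjusted 0.0137; rho = 0.587, permutation p = 0.00108, adjusted 0.0096), 0.443 without the 2 farthest, and 0.587 and 0.564 in the sexes. Fads6 and Elovl5 had r = 0.547 (permutation p = 0.0212, adjusted 0.0455; rho = 0.394, permutation p = 0.0325, adjusted 0.0814), 0.437 without the 2 farthest, with 0.65 in males and -0.05 in females. Fads2, Fads6 and Elovl5 also varied with depth over all mice. For Elovl5 and the log2 total count r was 0.405 (permutation p = 0.0472, adjusted 0.0884) and rho 0.304 (permutation p = 0.0871, adjusted 0.163). Its r was 0.304 without the 2 farthest mice, 0.476 in males and -0.139 in females. Fads1 and Elovl2 had r of 0.12 and 0.128 with the log2 total count (permutation p = 0.557 and 0.495). By sex these were 0.314 and 0.298 in males, and -0.545 and -0.41 in females. The part of depth in the relations of this paragraph was not tested. Fads2 and Fads1 had r = 0.495 (permutation p = 0.00297, adjusted 0.0137; rho = 0.468, permutation p = 0.0086, adjusted 0.0322), 0.469 without the 2 farthest, and 0.483 and 0.575 in the sexes. Fads1 and Elovl2 had r = 0.549 (permutation p = 0.00163, adjusted 0.0122; rho = 0.47, permutation p = 0.0084, adjusted 0.0322) and 0.503 without the 2 farthest, with 0.321 in males and 0.742 in females. Fads1 and Elovl5 had r = -0.00 (permutation p = 0.985; rho = 0.00, permutation p = 0.997) and -0.02 without the 2 farthest mice.

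Over the 37 mice, with only the mean of each sex removed so that dose is kept, the gene of 12996 most like Elovl5 was Acsl5, an acyl-CoA synthetase, with r = 0.933. Next came Lpl, lipoprotein lipase, with 0.84, and Me1, malic enzyme, which supplies NADPH, with 0.822. For Fads2 they were Gstt2, a glutathione transferase (0.842), Cpt1b, a carnitine palmitoyltransferase (0.832), and Gpam, which starts glycerolipid synthesis (0.828). For Fads1 they were Psmb6, a proteasome subunit (0.728), Fdps (0.726) and Cyp51 (0.707), both enzymes of cholesterol synthesis. Fads6 was most like Inpp4a (0.798), Slc4a1ap (0.783) and Cdc123 (0.78), and Elovl2 most like Gcsh (0.654), of the glycine cleavage system, Ftcd (0.628), of histidine breakdown, and Cyp7b1 (0.626), an oxysterol hydroxylase. For Fads3, at its few counts, the highest was Gtf2e1 with 0.602. These mice share dose groups and depth, and the values are a description.

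The other enzymes of the elongation cycle and of desaturation were taken as lists. Each elongation turn needs a condensing Elovl enzyme, the reductase Hsd17b12, a dehydratase of the Hacd family and the reductase Tecr. Of 10 tested genes of this list 5 were called higher and 1 lower in males at 5 mg/kg, with a median log2 fold change of 0.70 against -0.12 over all probes. The shares of all probes called at that dose were 4.21% higher and 8.49% lower in males, and 2.26% each way in females. Hsd17b12 went from 69.7 to 119 CPM in vehicle males to 146 to 165 CPM, a log2 fold change of 0.60 (SE 0.18, edgeR adjusted p = 0.0313), and Hacd1, Hacd3, Elovl1 and Elovl6 were the others called higher. Elovl3 was the 1 called lower, with 161 to 1448 CPM in vehicle males and 33.5 to 359 CPM at 5 mg/kg. In females 2 of the 10 were called higher, Hsd17b12 at 0.77 (SE 0.18, edgeR adjusted p = 0.00677) and Hacd3 at 0.76 (SE 0.24, edgeR adjusted p = 0.0748), and the median was 0.62 against -0.01.

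Among 8 genes of the other desaturases and their electron supply, 3 were called higher and 1 lower in each sex at 5 mg/kg. Over all probes 4.21% were called higher and 8.49% lower in males, and 2.26% each way in females. Scd1, the delta-9 stearoyl-CoA desaturase that makes monounsaturated fatty acids, went from 167 to 843 CPM in vehicle males to 1531 to 2593 CPM, a log2 fold change of 1.78 (SE 0.38, edgeR adjusted p = 0.00112), and by 2.25 in females (SE 0.38, edgeR adjusted p = 7.68e-05). Scd2, its paralog, had 2.97 in males (SE 0.60) and 2.60 in females (SE 0.59). The forms of cytochrome b5 moved in opposite directions. Cyb5a, the microsomal electron donor of these desaturases, fell by 0.66 in males (SE 0.16, edgeR adjusted p = 0.00551) and by 0.55 in females (SE 0.16, edgeR adjusted p = 0.0431), and Cyb5b, the form of the outer mitochondrial membrane, rose by 0.60 (SE 0.18, edgeR adjusted p = 0.0259) and 0.61 (SE 0.18, edgeR adjusted p = 0.0412). The list medians were 0.25 in males and 0.33 in females.

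**Figure D5:**
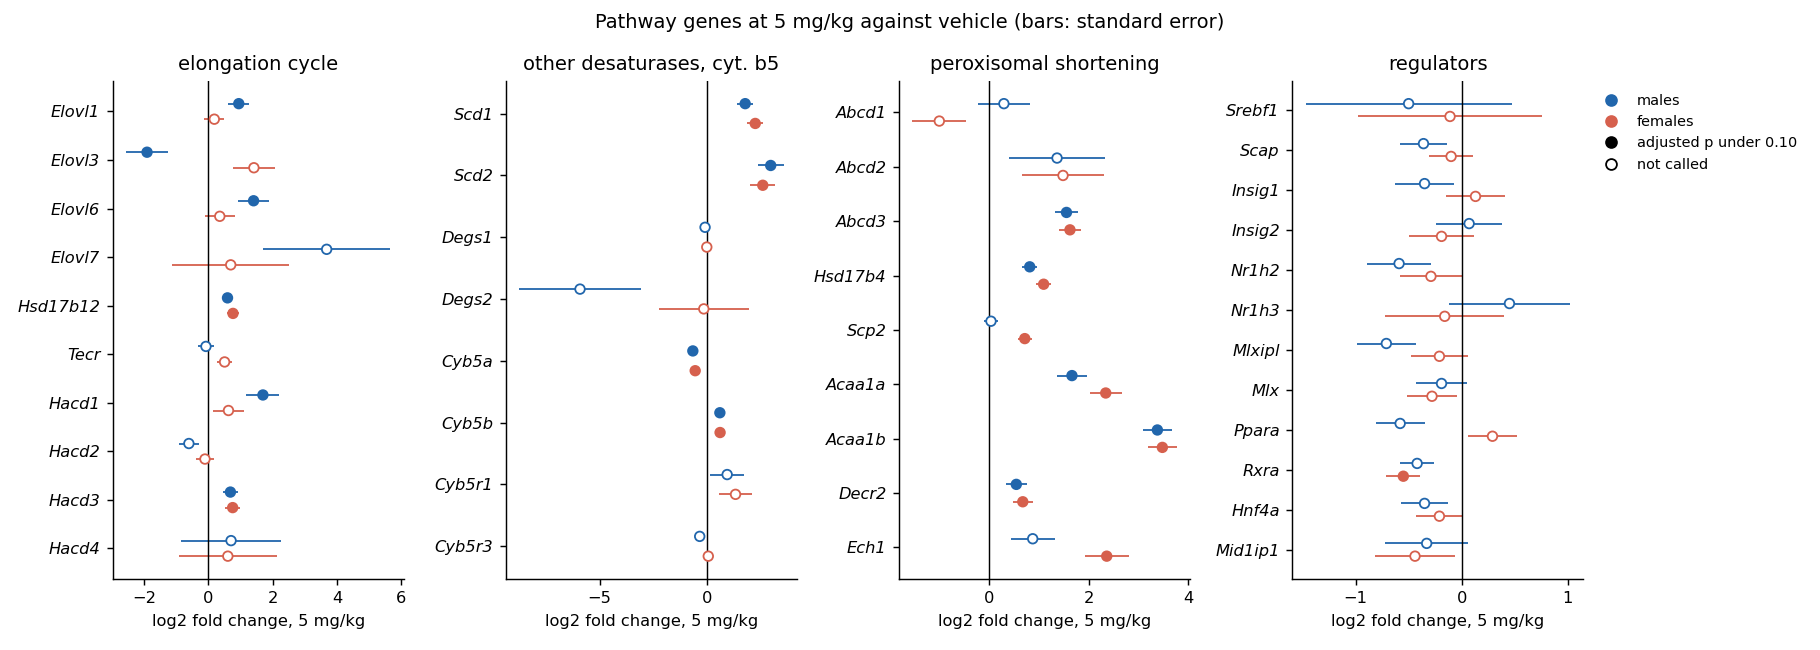
Log2 fold change at 5 mg/kg against vehicle (horizontal axes) of the listed pathway genes (vertical axes) in males and females, with bars of 1 standard error and filled points for an adjusted p under 0.10. Most peroxisomal genes lie to the right of 0 in both sexes, Scd1 and Scd2 are the highest of the desaturases, and of the regulators Rxra in females is the only filled point.

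Most of the 9 tested genes of peroxisomal chain shortening were called higher at 5 mg/kg in both sexes. There 5 of 9 were called higher in males and 7 in females, with none lower. Of all probes 4.21% were called higher in males and 2.26% in females at that dose. The list medians were 0.87 and 1.48, against -0.12 and -0.01 over all probes. At 0.5 mg/kg 4 were called higher in males and 2 in females, where 0.625% and 0.113% of all probes were called in either direction. Acaa1a and Acaa1b were called higher in both sexes at both doses. Hsd17b4, the bifunctional enzyme used for very long and branched chains, had 664 to 916 CPM in vehicle males, 1043 to 1280 at 0.5 and 954 to 1801 at 5 mg/kg, with log2 fold changes of 0.53 and 0.81 (SE 0.14 and 0.15, edgeR adjusted p = 0.0903 and 0.000143). In females the change at 5 mg/kg was 1.09 (SE 0.15, edgeR adjusted p = 1.27e-06). Scp2, the thiolase and sterol carrier, was called higher in females, with 0.71 (SE 0.14, edgeR adjusted p = 0.000441), and had 0.03 in males (SE 0.14, edgeR adjusted p = 0.938), and the interaction for this gene had an adjusted p of 0.131. As a check of exposure, 9 of 10 PPARα response genes were called higher in males given 5 mg/kg and 8 in females, 6 and 5 given 0.5 mg/kg, and 0 given 0.1 mg/kg in both. Ehhadh, the peroxisomal bifunctional enzyme, had 5.51 in males (SE 0.30) and 5.03 in females (SE 0.29) on the log2 scale at 5 mg/kg.

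Of the transcription factors and regulators that act on these genes, 0 of 12 was called higher in either sex at 5 mg/kg, none was called lower in males and 1, Rxra, in females. Over all probes 4.21% were called higher and 8.49% lower in males, and 2.26% each way in females. A list of 12 genes is too short for such counts to be told from these shares. Rxra, the partner of PPARα and LXR, fell by 0.55 in females (SE 0.16, edgeR adjusted p = 0.0437) and had -0.42 in males (SE 0.16, edgeR adjusted p = 0.1). Its trend over dose was called lower in both sexes, at -0.13 per level in males (SE 0.05, edgeR adjusted p = 0.0956) and -0.19 in females (SE 0.05, edgeR adjusted p = 0.0163). The Srebf1 probe, for the gene of SREBP1, was at 0.80 to 5.40 CPM in vehicle males and 0 to 6.38 at 5 mg/kg, and at 7.49 to 14.7 CPM in vehicle females and 6.81 to 16.5 in treated females. Its fitted change was -0.50 (SE 0.97) in males and -0.11 (SE 0.87) in females, errors that leave a change of the size seen for Fads2 undetectable. Its activity, which depends on cleavage of the protein, was not measured. Of 10 other SREBP1c targets, 5 were called higher in males (Fasn, Acaca, Me1, Elovl6 and Scd1) and 3 in females (Fasn, Me1 and Scd1), with medians of 0.83 and 0.99. Elovl6 and Scd1 also stand in the lists above.

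Downstream, the genes that activate fatty acids and place them in phospholipids were called higher for 4 of 18 in males and 5 of 18 in females at 5 mg/kg, and lower for 2 and 0, where 4.21% of all probes were called higher and 8.49% lower in males and 2.26% each way in females. Lpcat3, which puts polyunsaturated chains into phosphatidylcholine, had 9.63 to 18.4 CPM in vehicle males and 36.7 to 59.3 in treated males. It rose on the log2 scale by 1.54 in males (SE 0.23, edgeR adjusted p = 7.82e-06) and 0.92 in females (SE 0.23, edgeR adjusted p = 0.0111). It was already called at 0.5 mg/kg in males, with 0.95 (edgeR adjusted p = 0.0374). Acsl5 rose by 1.41 in males (SE 0.28, edgeR adjusted p = 0.000543) and 0.87 in females (SE 0.28, edgeR adjusted p = 0.0776). Pemt, which methylates phosphatidylethanolamine to phosphatidylcholine, fell by 0.57 in males (SE 0.16, edgeR adjusted p = 0.018) and had -0.31 in females (SE 0.16, edgeR adjusted p = 0.432). The list medians were 0.39 in males and 0.77 in females.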

How the data were processed

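Per the labels and the study's methods, the authors scraped FFPE liver sections from slides, ran TempO-Seq, converted the sequencer output with bcl2fastq 2.17.1.14, aligned reads with Bowtie (its version and the build are not given in the sources used here), and deposited counts per probe without normalization. They removed 3 of 40 libraries. Probe sequences were not used here. The counts were fitted as deposited in edgeR 4.0.16 (R 4.3.3), with filterByExpr on the 8 sex-by-dose groups (18570 of 30146 probes kept), TMM scaling and 1 quasi-likelihood fit of group means to all 37 mice. DESeq2 1.42.0, RLE scaling, other filters, probes summed per gene, thinning, separate fits per sex and leaving out each mouse were alternatives. Replicate numbers follow the order of the labels and pair nothing. Libraries of a group differed by more than counting noise. All probes of the members are reported. Of each list up to 6 called genes were named, besides Scd1, Srebf1 and Ehhadh, and other called genes of some lists were only counted. A gene of the peroxisomal list is not reported here and was left out of its counts. Likeness was Pearson's r of log2 CPM (prior count 2). Ratios used exact permutation tests, and correlations 100000 permutations in Python 3.11.15 with scipy 1.17.1. The fits were tested on simulated data. Total counts ran from 2101495 to 13878254, so that precision is least for Fads3 and for the shallow males. The members, lists and tests were chosen with earlier results of these data known.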

Additional observations from a re-analysis of the deposited data

Results flagged for a closer look

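Of 64 sets of values (8 probes in 8 groups) 6 held 1 mouse far from the others by Dixon's test, which chance gives in about 1 of 20. For Fads1 these were a 5 mg/kg male at 139 CPM, where the other 3 had 238 to 257 CPM, and a 5 mg/kg female at 415 CPM, where the other 3 had 291 to 308 CPM. The Fads1 male was replicate 1, which also had the lowest values of its group on both Elovl2 probes. For Elovl2_29604 it was a female at 0.1 mg/kg with 198 CPM against 128 to 146 CPM. For Fads3, at a few counts in all, they were a vehicle male at 0.13 CPM where the others were at 0, a 0.1 mg/kg male at 2.77 CPM against 0 to 0.638 CPM, and a 0.5 mg/kg male at 1.38 CPM against 0 to 0.247 CPM.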

How the results depend on the processing

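In males at 5 mg/kg the count of called genes was 4, and 2 (Fads2 and Elovl5) when each sex was fitted apart. It was 3 with DESeq2 size factors in edgeR, without a filter, with probes summed or with thinning. It was also 3 at a threshold of 0.05 and without the 4 shallow males, and stayed 4 with a mean count of at least 10. With 1 mouse left out the count ran from 2 to 5, the lowest without treated replicate 3. In females at 0.5 mg/kg the count was 0, and 1 (Elovl5) without a filter, with DESeq2, with each sex fitted apart and, in a fit chosen after seeing the data, without the 4 shallow males. Fads2 and Elovl5 at 5 mg/kg kept their direction under all of these alternatives in both sexes, and each had a called probe in all of them. DESeq2 called 5 genes in males at 5 mg/kg, with Fads1 and Fads3 added and Elovl2 lost. Reversals were seen only for values not called by edgeR with all mice. Fads3 at 5 mg/kg went from 4.83 to -1.59 in males without the shallow libraries and ranged from -0.14 to 0.93 in females with 1 mouse left out. Elovl2 in females at 5 mg/kg ranged from -0.14 to 0.23 with 1 mouse left out, and Fads2 in vehicle females against males from -0.26 to 0.07. The causes were not tested. RLE scaling moved the median of all probes in males at 5 mg/kg from -0.12 to -0.03, and no member probe changed direction with it at 5 mg/kg in either sex. No paired analysis was possible because replicate numbers are not shared in the labels. Depth limits low-count probes such as Fads3 and Srebf1, and 2 of 4 males at 5 mg/kg had under 5000000 counts.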

Other observations

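Of 7 tested genes of enzymes that use polyunsaturated fatty acids, 2 were called higher and 2 lower in each sex at 5 mg/kg, where 12.7% of all probes were called in males and 4.52% in females, with medians of -0.28 in males and 0.45 in females. Ephx2, the soluble epoxide hydrolase that opens fatty acid epoxides, rose from 863 to 1160 CPM in vehicle males to 1321 to 2058 CPM, a log2 fold change of 0.75 (SE 0.16, edgeR adjusted p = 0.00126), and by 1.54 in females (SE 0.16, edgeR adjusted p = 3.39e-09). Ephx1, the microsomal form, rose by 0.91 (SE 0.21, edgeR adjusted p = 0.00393) and 1.65 (SE 0.22, edgeR adjusted p = 6.97e-07). Cyp2c29, an epoxygenase of a gene family whose members can share reads, fell by 2.52 in males (SE 0.23, edgeR adjusted p = 9.35e-11) and by 1.13 in females (SE 0.22, edgeR adjusted p = 0.000437). Its change differed between the sexes, with an interaction of 1.38 (SE 0.30, edgeR adjusted p = 0.0165). Cyp4f14, an omega-hydroxylase of the leukotriene family of P450 enzymes, fell by 2.03 (SE 0.39, edgeR adjusted p = 0.00031) and 2.48 (SE 0.39, edgeR adjusted p = 2.65e-05). The lipoxygenase genes Alox5, Alox12 and Alox15 and the genes Ptgs2 and Ptges did not pass the filter on low counts.

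Of the other marker lists, none of the Kupffer, stellate, cholangiocyte, lymphocyte and red cell markers was called at 5 mg/kg, and of the endothelial markers 1, Kdr, was called lower in males. Summed levels of the 4 cycling cell markers were 0 to 9.08 CPM in vehicle males and 2.59 to 32.6 CPM at 5 mg/kg. In females they were 4.4 to 15.4 CPM with vehicle and 12.1 to 31.6 CPM at 5 mg/kg, and none was called at that dose. A rising trend over dose was called for the cycling marker Ccnb1 in males and the red cell marker Alas2 in females. Of all probes 13.2% had a called trend in males and 5.3% in females, in either direction.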
